A study of Mus musculus with 25 samples.

Results

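The 8 genes Ccng1, Zmat3, Trp53inp1, Bbc3, Cdkn1a, Mdm2, Gadd45a and Sesn2 are known transcriptional targets of the tumour suppressor p53. They were followed through 8 days of follicle culture by taking every probe on the array that carried 1 of these symbols, which gave 19 of 25697 probes. All 8 genes were among the 10688 genes tested, and the probe that stood for each was detected on 20 of 20 follicle arrays. Transcripts of 4 members (Ccng1, Zmat3, Trp53inp1 and Bbc3) were higher on every cultured day than in fresh follicles, whereas the Gadd45a transcript was lower on every cultured day. Cdkn1a differed by less, Mdm2 was lower at day 2 and Sesn2 was higher at day 4 than at day 2. On a single cultured day, 12.1% to 21% of all genes were called higher than fresh and 13.1% to 22.8% lower. The share called on every cultured day was not counted. The Bbc3 result rests on 1 probe of 3. The day 2 calls of Trp53inp1 and Bbc3 were lost on a second probe and with the fresh arrays counted as 1 sample. The Mdm2 call at day 2 and the Sesn2 call from day 2 to day 4 were lost in these ways too. Leaving out some single arrays also ended the Mdm2 and Sesn2 calls.

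The follicles were multilayered secondary follicles, 150 to 180 µm across, dissected by hand from ovaries of CD-1 mice aged 16 days. Each was enclosed on its own in alginate (3% in the series title) and grown in medium with 10 mIU/ml recombinant FSH, albumin, fetuin, insulin, transferrin and selenium, which all cultured groups shared. Illumina bead arrays were run on day 0 follicles, here called fresh (n = 5), and on follicles at days 2, 4, 5, 6 and 8 of culture (n = 3 each), with 20 to 40 follicles pooled per sample. The labels speak of 3 independent experiments per group, while the 5 day 0 arrays have titles of a reference and may be repeats of 1 pool, in which case their spread is technical. No genotype or drug separates the cultured groups from each other, and among them culture time and the growth of the follicle cannot be told apart. Against day 0, the alginate, medium and FSH of culture cannot be told apart from time and growth either.

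p53 is a transcription factor that is held at a low level by the ubiquitin ligase Mdm2 and builds up after DNA damage and other stress. It then switches on genes that stop the cell cycle, repair DNA, start apoptosis or adjust metabolism, and it also switches on Mdm2, which closes a feedback loop. In the ovary, p53 has been tied to the death of granulosa cells in atresia, and the oocyte relies on the relative p63 to guard its genome. Many of the targets respond to other signals too, so their transcripts are not a measure of p53 protein or of its activity, which were not measured here.

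Promoter sequences of 6 members were available from RefSeq (GRCm38.p6), as windows that run from 250 bases before to 50 bases after each annotated start; Zmat3 and Trp53inp1 are named here only. The stretches that come closest to the p53 half-site consensus are shown because the members share the factor but not the course in culture. The consensus is a palindrome of 10 bases, so a search reads both strands at once, and a full element is a pair of half-sites with up to 13 bases between them. Capitals mark the best pair in the window, or, for Mdm2, the exact half-site on its own.
Ccng1, chr11:40755432-40755511, minus strand: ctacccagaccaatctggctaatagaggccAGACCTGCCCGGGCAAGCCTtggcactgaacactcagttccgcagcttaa
Cdkn1a, chr17:29090882-29090961, plus strand: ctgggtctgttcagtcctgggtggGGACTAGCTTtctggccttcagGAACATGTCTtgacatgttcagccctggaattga
Gadd45a, chr6:67037414-67037493, minus strand: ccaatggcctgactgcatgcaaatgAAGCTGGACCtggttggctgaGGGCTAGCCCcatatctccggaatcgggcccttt
Mdm2, chr10:117710900-117710979, minus strand: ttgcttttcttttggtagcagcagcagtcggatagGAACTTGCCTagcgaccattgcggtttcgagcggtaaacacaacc
Bbc3, chr7:16309481-16309510, plus strand: cccgaCTGCAAGCCCCGACTTGTCCccagc

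An exact half-site lay in the windows of 4 of the 6 members (Ccng1, Cdkn1a, Mdm2 and Gadd45a), and 8.36% of 32851 RefSeq windows hold 1. The Cdkn1a window at the first listed start held a pair with 0 mismatches, as 0.0731% of windows do. Its second half-site is followed at once by another 10 bases with 1 mismatch, and a pair without spacer of that quality or better is found in 0.0883% of windows. The Ccng1 pair also has no spacer and 1 mismatch. The best pair, with any spacer of up to 13 bases, had 2 mismatches for Gadd45a (10.1% of windows have as few). It had 3 for Bbc3 (45.1%) and 4 for Mdm2 and Sesn2 (89.3%). The Bbc3 pair shown has no spacer, and 6.29% of windows hold a pair without spacer with as few mismatches. Pairs like those of Mdm2 and Sesn2 are common among promoters. These matches describe letters in a window of 300 bases, and no match there says only that the letters are not in that window.

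**Figure D1:**
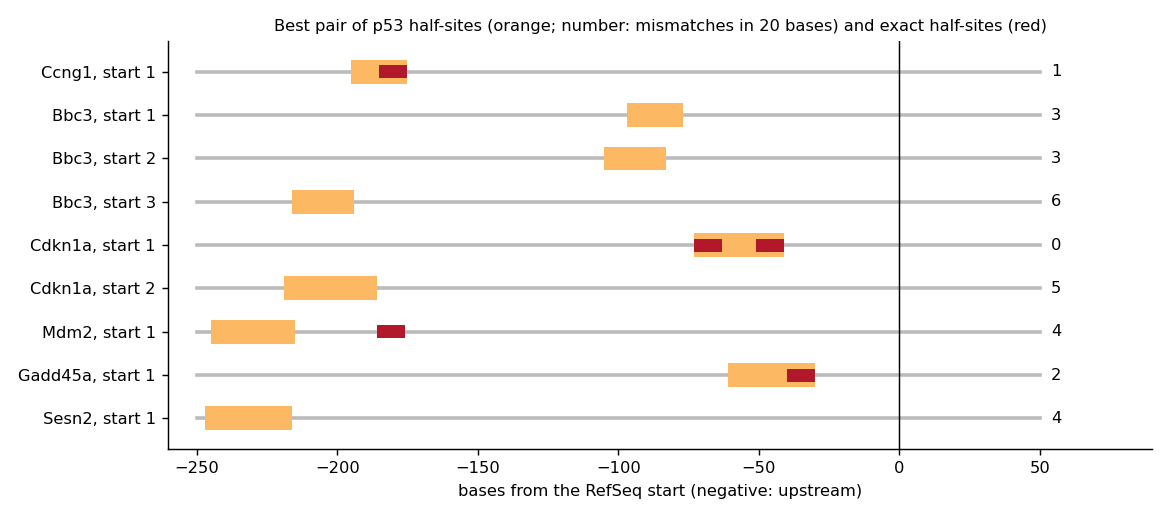
Position of the best pair of p53 half-sites (orange) and of exact half-sites (red) in the RefSeq windows of 6 members, with distance from the annotated start in bases on the horizontal axis and the number of mismatches of the pair at the right. Exact half-sites appear in 4 of the 9 windows, those of Ccng1, Cdkn1a (first start), Mdm2 and Gadd45a.

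The labelled tissue was checked against its markers: of 5 granulosa genes all were detected on at least 2 of the 5 day 0 arrays, and 7 of 8 oocyte genes were detected on all 5, while Zp2 did not pass the filter on dim probes. Between 44.2% and 51.3% of probes were detected on an array, and the median array signal before normalization lay between 95.8 and 168. The lowest correlation between arrays of 1 day was 0.95, at day 6, where repeat 1 stood apart from the others. Values below are normalized log2 signals, and a change is a difference between day means on that scale with its standard error (SE); p values come from limma, adjusted by Benjamini and Hochberg over 10688 genes, with a threshold of 0.05. In such pooled follicles, fewer cells of a type and less RNA per cell cannot be told apart.

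Over the 6 days, 7 of 8 members differed in the moderated F test, against 50% of all genes tested. Mdm2 did not pass (adjusted p = 0.0596), but it did under 8 of 29 alternative settings, among them without day 6 repeat 1 or 3 (0.0431 and 0.0373). Sesn2 passed under 24 of 29. It did not pass without day 2 repeat 2 or 3 (adjusted p 0.0655 to 0.0777) or on its second probe. The authors' deposited log2 values and day 0 as 1 sample also lost it. Bbc3 did not pass on its second probe (adjusted p = 0.829), nor did Cdkn1a with day 0 as 1 sample. At day 2, 4 members rose and 2 fell against day 0, where 25.1% of all genes were called, 12.1% as higher and 13.1% as lower. At day 4, 5 members rose and 1 fell (all genes 33.7%, of which 15.3% higher and 18.4% lower). At day 5 the counts were again 5 and 1 (all genes 35.9%, 16.6% higher and 19.3% lower), and at day 6 they were 4 and 1 (42.9%, 21% higher and 21.9% lower). At day 8, 5 members rose and 1 fell (all genes 43.4%, 20.6% higher and 22.8% lower). The median change over the 8 members was 0.22 at day 2 and 0.92 at day 8, beside 0.00 for all genes at both days. The 5 comparisons share the day 0 arrays, so their counts are not separate evidence.

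**Figure D2:**
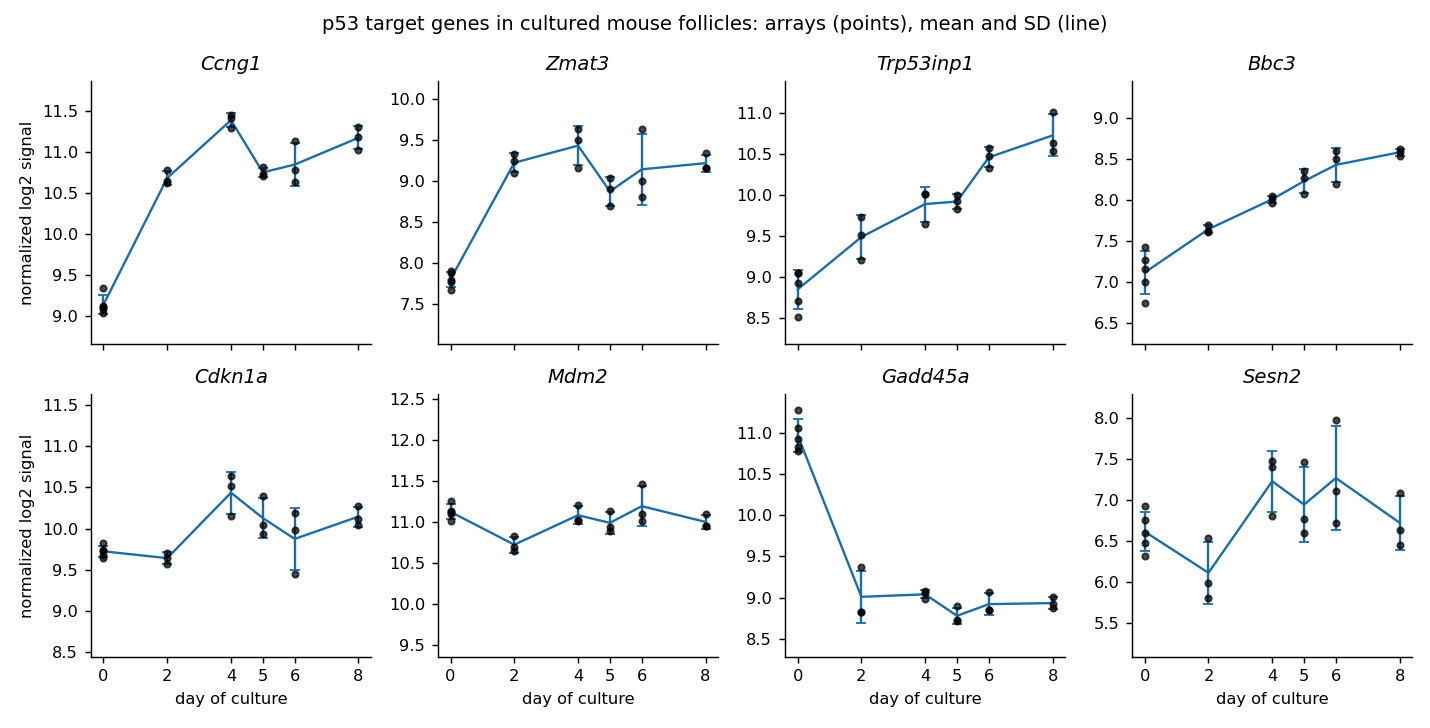
Normalized log2 signal of the 8 members (vertical axis) by day of culture (horizontal axis), with each array as a point and the mean and SD of each day as the line. Ccng1, Zmat3, Trp53inp1 and Bbc3 lie above all day 0 arrays on every cultured day, and Gadd45a lies below them.

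Among the cell cycle members, Ccng1 encodes cyclin G1, which recruits a phosphatase to Mdm2. It lies on chromosome 11 (40748552 to 40755309, GRCm38.p6) and was read by probe ILMN_2500276. Its log2 levels on the 5 day 0 arrays were 9.04, 9.12, 9.11, 9.33 and 9.09, and on the 3 day 2 arrays 10.62, 10.77 and 10.65. They were 11.45, 11.41 and 11.28 at day 4, and 10.73, 10.70 and 10.81 at day 5. They were 10.63, 10.77 and 11.13 at day 6, and 11.18, 11.30 and 11.02 at day 8. No cultured array came near a fresh one, and day 4 stood above days 2 and 5 without overlap. Ccng1 was 2.91-fold higher at day 2 than at day 0 (log2 change 1.54, SE 0.12, adjusted p = 2.14e-08), and it reached a 4.74-fold difference at day 4 (2.25, adjusted p = 6.26e-11). It was 4.09-fold higher at day 8 (2.03, SE 0.12, adjusted p = 1.27e-10).

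Between cultured days Ccng1 rose from day 2 to day 4 by 0.70 (SE 0.14, adjusted p = 0.00237). It then fell by 0.64 from day 4 to day 5 (adjusted p = 0.0241). That fall was not called when day 4 repeat 1 or 2, or day 5 repeat 1 or 2, was left out (changes of -0.63 to -0.60, adjusted p 0.0752 to 0.114). Day 8 was above day 2 by 0.49 (adjusted p = 0.0123), which was not called without day 8 repeat 2 (0.42, adjusted p = 0.0596) or on the second probe (0.02, adjusted p = 0.957). In the fits at day 2 against day 0, the other 2 probes of Ccng1 gave 1.48 and 1.45, close to the 1.54 of the first. At day 8 against day 0 they gave 1.60 and 1.47, smaller than its 2.03.

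Cdkn1a encodes p21, the inhibitor of cyclin-dependent kinases through which p53 halts cells in G1, and lies on chromosome 17 (29090979 to 29100722; probe ILMN_2634083). Its levels were 9.83, 9.65, 9.74, 9.73 and 9.67 at day 0, and 9.64, 9.57 and 9.71 at day 2. At day 4 they were 10.64, 10.52 and 10.15, and at day 5 they were 9.94, 10.40 and 10.05. At day 6 they were 9.45, 9.99 and 10.19, and at day 8 they were 10.04, 10.28 and 10.12. The fresh and day 2 arrays overlapped, every array of days 4, 5 and 8 was above all of them, and day 6 spanned both ranges. The difference at day 2 was -0.08 (SE 0.16, 95% interval -0.41 to 0.24, adjusted p = 0.768). Cdkn1a rose 1.74-fold from day 2 to day 4 (0.80, SE 0.17, adjusted p = 0.00606), and this passed under all 29 alternative settings. Day 4 was above day 0 by 0.71 (adjusted p = 0.00133), which was lost with day 0 as 1 sample (adjusted p = 0.135).

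The later Cdkn1a differences from day 0 were small. At day 8 it was 0.42 (adjusted p = 0.0341), and it was not called without day 0 repeat 2, 3 or 5 or day 8 repeat 2 or 3 (0.36 to 0.43, adjusted p 0.0514 to 0.132). At day 5 it was 0.41 (adjusted p = 0.0492) and passed under 9 of 29 alternatives; it was lost on leaving out any of 15 arrays (0.27 to 0.44, adjusted p 0.0519 to 0.260), which were all those of days 0, 2 and 8, day 4 repeat 2, day 5 repeats 2 and 3 and day 6 repeat 2. The rise from day 2 to day 8 (0.51, adjusted p = 0.0425) passed under 13 of 29 and was lost on leaving out any array of days 0, 2 or 8, or day 4 repeat 2 (0.44 to 0.56, adjusted p 0.0501 to 0.139). At day 8 against day 0 the other 2 probes of Cdkn1a gave 0.32 and 0.44, neither past the threshold (adjusted p = 0.157 and 0.0589). The values of the authors' deposited log2 table gave 0.20 (adjusted p = 0.148), and the call was also lost with day 0 as 1 sample (adjusted p = 0.362).

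Gadd45a encodes a small stress protein that binds PCNA, p21 and the kinases upstream of p38 and JNK, and lies on chromosome 6 (67035096 to 67037407; probe ILMN_2742152). The day 0 levels were 10.93, 11.06, 10.83, 11.28 and 10.79, and those of day 2 were 9.38, 8.83 and 8.82. At day 4 they were 9.08, 9.06 and 8.99, and at day 5 they were 8.73, 8.89 and 8.71. At day 6 they were 9.07, 8.85 and 8.84, and at day 8 they were 8.87, 8.93 and 9.01. All 15 cultured arrays lay far below all 5 fresh arrays, and cultured days next to each other in the order of their means (5, 6, 8, 2 and 4) overlapped, while days 4 and 5 did not. Gadd45a fell 3.92-fold by day 2 (-1.97, SE 0.14, adjusted p = 5.18e-09) and was 4.13-fold lower than fresh at day 8 (-2.05, adjusted p = 8.71e-10). The day 2 and day 8 levels differed by -0.08 (95% interval -0.40 to 0.25, adjusted p = 0.802). Its other probe gave -1.69 at day 2 and -1.96 at day 8. The fall from day 0 passed under all 29 alternatives at every cultured day.

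The fall of Gadd45a went with falls of markers of some other cell types. Of all genes, 13.1% were called lower at day 2 and 22.8% at day 8 against day 0. Other marker sets did not share the fall at day 2. Of 5 granulosa genes 1 rose and 0 fell, and of 5 macrophage genes 1 rose and 1 fell. Of 4 theca genes 0 rose and 1 fell. The summed normalized signal of 3 surface epithelium genes (Krt8, Krt18 and Upk3b) ran from 2045 to 2396 at day 0 and from 774 to 853 at day 2, and all 3 fell. For 4 red blood cell genes the sums were 2471 to 3433 at day 0 and 153 to 181 at day 2, and all 4 fell, with Hbb-b1 and Alas2 not detected on any day 2 array. Of 7 oocyte genes, 4 fell at day 2 and 7 at day 8, with sums of 56981 to 62922 at day 0, 38657 to 41593 at day 2 and 13496 to 15084 at day 8. Of 4 smooth muscle genes, 3 fell at day 2 and 4 at day 8, with sums of 5952 to 6689, 5622 to 6365 and 2250 to 3060 at days 0, 2 and 8. Of 4 endothelial genes, Tek (-1.07) and Cdh5 (-0.67) fell at day 2 and Vwf rose (1.41), with sums of 350 to 423 at day 0 and 287 to 362 at day 2. The part of these cells in the Gadd45a result was not tested.

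Mdm2, the ligase that marks p53 for destruction and is itself a p53 target, lies on chromosome 10 (117688875 to 117710758; probe ILMN_1250774). Its levels were 11.14, 11.12, 11.01, 11.10 and 11.26 at day 0, and 10.83, 10.65 and 10.70 at day 2. They were 11.03, 11.22 and 11.01 at day 4, and 10.94, 10.90 and 11.14 at day 5. They were 11.47, 11.10 and 11.01 at day 6, and 10.96, 10.95 and 11.11 at day 8. Day 2 was the lowest day, apart from all others, and the remaining days overlapped the fresh range. Mdm2 was 1.32-fold lower at day 2 than at day 0 (-0.40, SE 0.12, adjusted p = 0.0180). This was lost without day 2 repeat 2 or 3 (-0.39 and -0.36, adjusted p 0.0640 to 0.0842) and on the second probe, where the difference was as large (-0.43, adjusted p = 0.105). It was also lost with day 0 as 1 sample (adjusted p = 0.407). At day 8 the difference from day 0 was -0.12 (95% interval -0.37 to 0.13, adjusted p = 0.442).

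**Figure D3:**
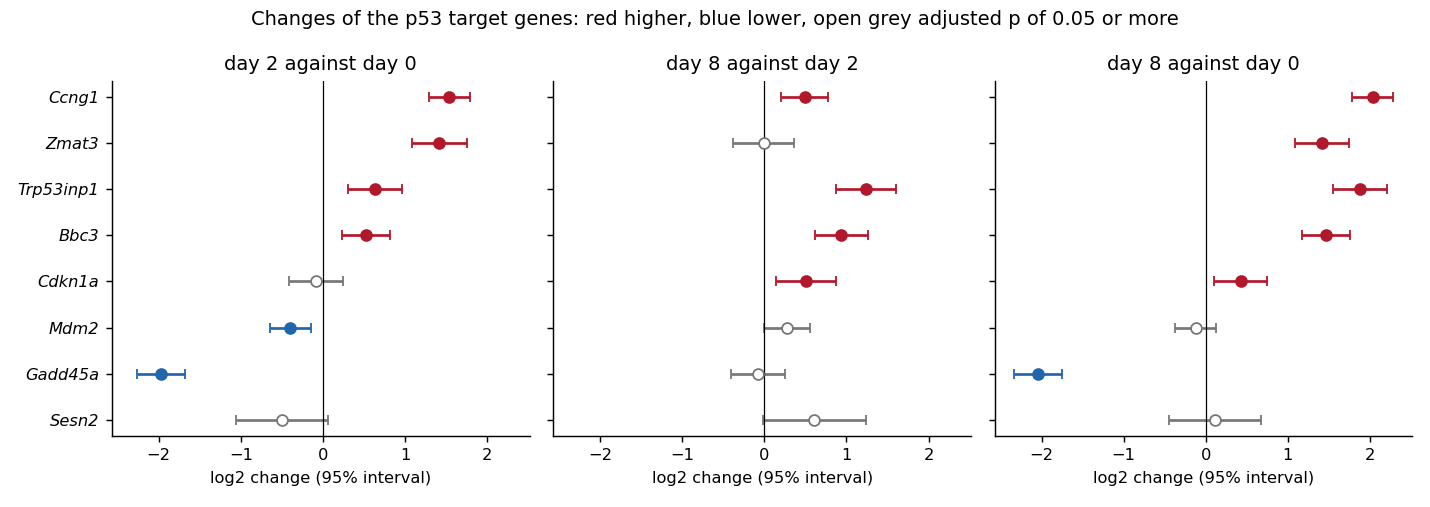
Log2 change of each member with its 95% interval (horizontal axis) for day 2 against day 0, day 8 against day 2 and day 8 against day 0; red and blue points passed the threshold as higher and lower, open grey points did not. Ccng1 and Zmat3 show most of their change by day 2, while Trp53inp1 and Bbc3 show further rises from day 2 to day 8.

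Of the members tied to cell death, Bbc3 encodes PUMA, a BH3-only protein that frees Bax and Bak to open mitochondria, and lies on chromosome 7 (16308398 to 16318334; probe ILMN_2920736). Its levels were 7.27, 6.99, 6.74, 7.42 and 7.15 at day 0, and 7.70, 7.61 and 7.62 at day 2. They were 7.96, 8.01 and 8.04 at day 4, and 8.27, 8.06 and 8.35 at day 5. They were 8.19, 8.49 and 8.59 at day 6, and 8.54, 8.58 and 8.62 at day 8. The day means rose in the order of the days, and no arrays overlapped between days 0, 2, 4 and 5, whereas days 5, 6 and 8 overlapped with their neighbours. Bbc3 was 1.44-fold higher than fresh at day 2 (0.53, SE 0.14, adjusted p = 0.00826) and 2.76-fold higher at day 8 (1.46, SE 0.14, adjusted p = 6.21e-08). From day 2 to day 8 it rose by 0.94 (SE 0.16, adjusted p = 0.000162). No step between neighbouring cultured days passed on its own.

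The Bbc3 result rests on 1 probe of 3. The second was detected on 8 of 20 arrays and gave 0.10 at day 2 and 0.45 at day 8 (adjusted p = 0.897 and 0.354), and the third was detected on 2 of 20 and was not tested. The day 2 difference also missed the threshold when the 5 day 0 arrays were counted as 1 sample.

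Trp53inp1 encodes a stress protein that promotes autophagy and p53-dependent death, and lies on chromosome 4 (11156441 to 11174379; probe ILMN_2506012). Its levels were 8.52, 8.71, 9.05, 9.05 and 8.93 at day 0, and 9.74, 9.52 and 9.22 at day 2. They were 10.01, 10.02 and 9.64 at day 4, and 9.83, 10.01 and 9.93 at day 5. They were 10.57, 10.33 and 10.48 at day 6, and 10.54, 10.63 and 11.02 at day 8. The means again followed the order of the days, with no overlap of arrays between days 0 and 2 or between days 5 and 6. The step from day 5 to day 6 did not pass (0.54, adjusted p = 0.142). Trp53inp1 was 1.56-fold higher at day 2 (0.64, SE 0.16, adjusted p = 0.00556) and 3.67-fold higher at day 8 than at day 0 (1.88, SE 0.16, adjusted p = 1.30e-08). It rose by 1.24 from day 2 to day 8 (SE 0.18, adjusted p = 3.28e-05). Its other probe gave 0.73 at day 2 (adjusted p = 0.0702), 1.68 at day 8 and 0.95 from day 2 to day 8. On that probe day 4 was above day 0 by 0.72, which missed the threshold too (adjusted p = 0.0588). The day 2 difference was also lost with day 0 as 1 sample.

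Zmat3 encodes a zinc finger protein that binds RNA and is known as a mediator of tumour suppression by p53, and lies on chromosome 3 (32334792 to 32365665; probe ILMN_2418426, its only probe). Its levels were 7.77, 7.91, 7.88, 7.79 and 7.68 at day 0, and 9.10, 9.25 and 9.33 at day 2. They were 9.63, 9.50 and 9.17 at day 4, and 9.04, 8.90 and 8.69 at day 5. They were 9.63, 8.80 and 9.00 at day 6, and 9.16, 9.34 and 9.16 at day 8. Day 0 lay apart below every cultured day, and in the order of their means (5, 6, 8, 2 and 4) each cultured day overlapped its neighbours. Zmat3 was 2.67-fold higher at day 2 (1.42, SE 0.16, adjusted p = 1.89e-06) and 2.66-fold higher at day 8 (1.41, SE 0.16, adjusted p = 5.58e-07). The day 8 and day 2 levels differed by -0.01 (95% interval -0.38 to 0.37, adjusted p = 0.989). In the authors' deposited log2 table the same comparisons with day 0 gave 0.78 at day 2 and 0.77 at day 8, smaller but past the threshold.

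Sesn2 encodes a sestrin, which senses leucine and restrains the growth kinase mTORC1, and lies on chromosome 4 (132492804 to 132510456; probe ILMN_2948945). Its levels were 6.76, 6.32, 6.60, 6.93 and 6.48 at day 0, and 6.54, 6.00 and 5.81 at day 2. They were 7.41, 7.48 and 6.81 at day 4, and 6.61, 6.77 and 7.47 at day 5. They were 7.97, 6.73 and 7.11 at day 6, and 6.45, 6.64 and 7.09 at day 8. Repeats of a day differed widely, with SDs from 0.24 at day 0 to 0.64 at day 6, and neighbouring days in the order of the means overlapped, though every day 4 array was above every day 2 array. Sesn2 rose 2.17-fold from day 2 to day 4 (1.12, SE 0.30, adjusted p = 0.0245). That call was lost without day 2 repeat 2 or 3 or day 4 repeat 1 or 2 (0.96 to 1.06, adjusted p 0.0920 to 0.119), with day 0 as 1 sample (adjusted p = 0.0623), on the second probe (0.15) and on the values of the authors' deposited log2 table (0.30, adjusted p = 0.0843). No difference from day 0 passed; the day 6 value was 0.65 (95% interval 0.09 to 1.21, adjusted p = 0.0554). Its second probe was detected on 3 of 20 arrays.

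**Figure D4:**
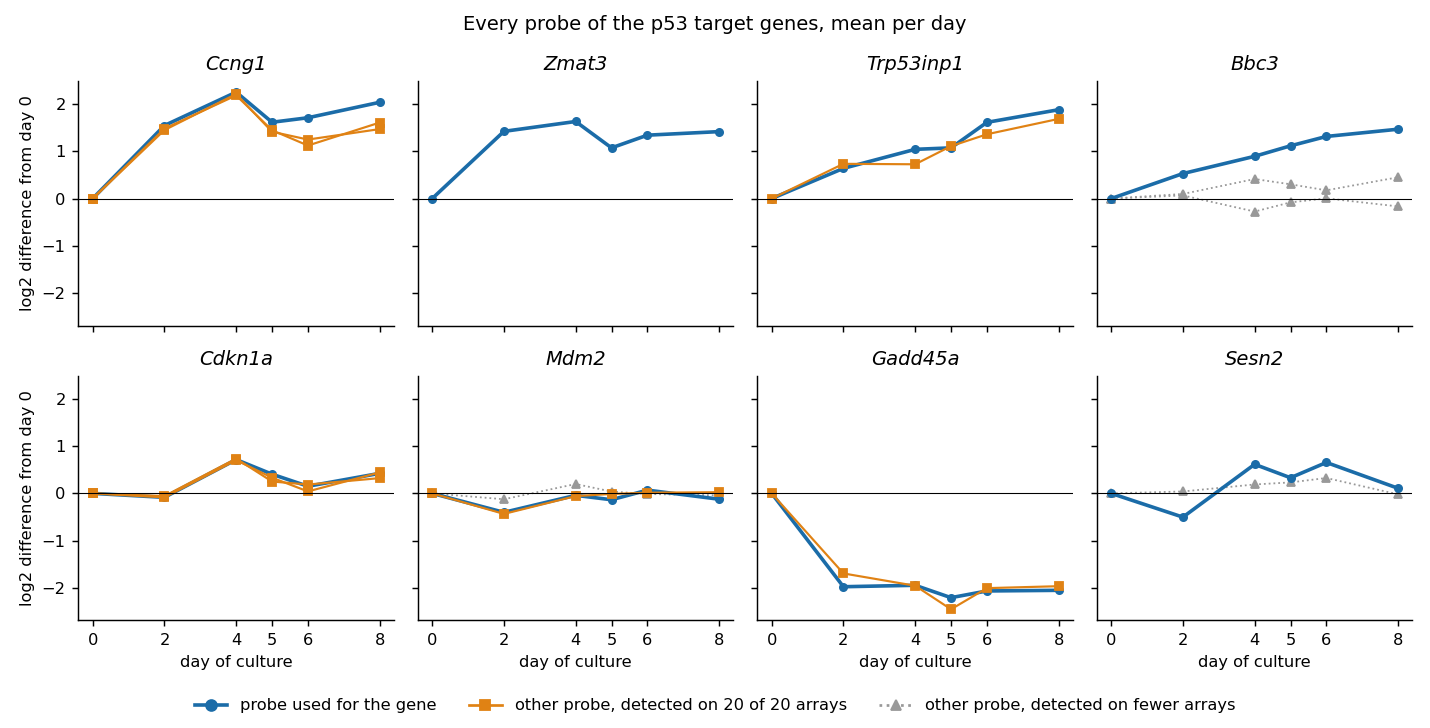
Mean log2 difference from day 0 (vertical axis) by day of culture (horizontal axis) for each probe of the 8 members; blue is the probe used, orange another probe detected on 20 arrays, grey dotted a probe detected on fewer. Probes of Ccng1, Cdkn1a, Trp53inp1 and Gadd45a that were detected on all arrays lie on the same side of 0 on each cultured day, with the other Ccng1 probes below the one used at days 6 and 8; the Mdm2 probes differ in sign at day 8 (-0.12 and 0.03), and the dim probes of Bbc3 and Sesn2 stay closer to 0 than the probe used.

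From day 2 to day 4, 3 members rose (Ccng1, Cdkn1a and Sesn2) and none fell, where 8.39% of all genes were called, 3.05% as higher and 5.34% as lower. Ccng1 was the member that fell from day 4 to day 5 (all genes 0.954%, 0.543% higher and 0.412% lower). No member passed in limma from day 5 to day 6 (all genes 1.34%, 0.711% higher and 0.627% lower) or from day 6 to day 8 (0.767%, 0.477% higher and 0.29% lower). At an unadjusted p under 0.05 there was 1 in each, Trp53inp1 and Ccng1, and no alternative setting gave a call. From day 2 to day 8, 4 members rose (Ccng1, Trp53inp1, Bbc3 and Cdkn1a) and none fell (all genes 22.4%, 10.1% higher and 12.3% lower). The median change over members was 0.38 from day 2 to day 4 and 0.50 from day 2 to day 8, beside -0.002 for all genes in each.

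The share of the change already present at day 2 varied among the members. At day 2 the log2 change had reached 75.9% of its day 8 size for Ccng1 on the probe used, 100.4% for Zmat3 and 96.3% for Gadd45a, but 34.0% for Trp53inp1 and 36.0% for Bbc3. The Ccng1 share depends on the probe. Its other probes changed by 1.48 and 1.45 at day 2, close to their 1.60 and 1.47 at day 8. Over the 20 arrays Ccng1 and Zmat3 followed each other (Pearson r = 0.93), as did Trp53inp1 and Bbc3 (0.91), and Ccng1 and Gadd45a ran opposite (-0.92). Of the 28 pairs of members, 4 had r above 0.8 and 3 below -0.8. These correlations share the same 20 arrays and mostly follow the day means: with the day means taken out, r was -0.15 for Ccng1 with Zmat3 and -0.13 for Trp53inp1 with Bbc3. Mdm2 and Sesn2 correlated within days (0.72) as well as over all arrays (0.74). Day 6 repeat 1 lay at one end of the day for both, with 11.47 for Mdm2 beside a mean of 11.06 for the other 2 arrays, and 7.97 for Sesn2 beside 6.92. On that array Cdkn1a was low (9.45 beside 10.09) and Zmat3 high (9.63 beside 8.90).

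For each of the 7 members that differed over the days, the 3 named genes with the most similar levels were listed by Pearson r over the same 20 arrays. They were Sema7a, Rassf4 and Masp1 for Ccng1 (each 0.95), and Ubac1, Fndc10 and Zbtb5 for Zmat3 (each 0.94). For Trp53inp1 they were the prolactin receptor Prlr (0.97), Sgcb (0.97) and Asah2 (0.96). For Bbc3 they were Copz2 (0.96), the desaturase Fads2 (0.95) and the LH receptor Lhcgr (0.95). For Gadd45a they were Ccl21c, Ctnnal1 and Crhbp (each 0.98), for Cdkn1a they were Hyi (0.86), Bbox1 (0.84) and Cela2a (0.81), and for Sesn2 they were Zc3h14, Crkl and Rps6ka5 (each 0.92). With the day means taken out, r of these genes with their members ran from -0.45 (Rassf4 with Ccng1) to 0.94 (Crkl with Sesn2). It was 0.68 for Prlr with Trp53inp1, 0.39 for Fads2 with Bbc3 and -0.06 for Lhcgr with Bbc3. Shared regulation was not tested. The late rises of Trp53inp1 and Bbc3 went with a change in cell markers. From day 2 to day 8, 3 of 4 theca genes rose and none fell, and of 5 granulosa genes 1 rose and 1 fell. Of all genes, 10.1% rose and 12.3% fell in that comparison. At day 8 against day 0, 3 of 4 theca genes (Cyp17a1, Insl3 and Cyp11a1) were higher. Of 5 granulosa genes, 2 (Fshr and Nr5a2) were higher and 1 was lower there, beside 20.6% and 22.8% of all genes. The theca sum was 2742 to 2927 at day 0, 906 to 1145 at day 2 and 6402 to 11241 at day 8; the granulosa sum was 16494 to 25655 at day 0 and 22686 to 32951 at day 8, with Amh not detected on any day 8 array. Of 5 macrophage genes, Lyz2 (3.86) and Cd68 (1.06) rose at day 8 and Cd14 (-1.46) and Adgre1 (-0.48) fell. Their sum was 289 to 330 at day 0 and 581 to 1616 at day 8, where Adgre1 and C1qa were detected on no array. The part of these cells in the members' changes was not tested.

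Other genes of the pathway were called in both directions. A list of 54 further regulators, targets and paralogs held 45 genes that could be tested, of which 28 differed over the 6 days, beside 50% of all genes. At day 2, 10 rose and 6 fell (35.6%, beside 25.1% of all genes), at day 8 against day 0, 9 rose and 14 fell (51.1%, beside 43.4%), and from day 2 to day 8, 4 rose and 7 fell (24.4%, beside 22.4%). The medians of the list were 0.00, -0.04 and -0.18. Another 7 genes, Trp73, Btg2, Sfn, Pmaip1, Perp, Tigar and Gls2, did not pass the filter on dim probes, and 2, Atr and Ckap2, had no probe with their symbol.

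Of 12 p53 family members and regulators, 1 rose and 1 fell at day 2 and 4 fell at day 8 against day 0 (16.7% and 33.3%, beside 25.1% and 43.4% of all genes). The Trp53 transcript itself differed by 0.04 at day 2 (adjusted p = 0.928) and was lower at day 8 by 0.69 (adjusted p = 0.0148). That day 8 difference rested on repeat 1, where Trp53 was at 8.45 against 9.51 and 9.24 in the others, and was -0.38 without it (adjusted p = 0.163). Trp63, which encodes the p53 relative of oocytes, fell by 1.35 at day 8 (adjusted p = 3.92e-05). It was detected on 5 of 5 day 0 arrays but on 1 of 3 day 8 arrays, so the size of its fall is uncertain. All 7 of 7 tested oocyte markers fell at day 8 as well, and the part of the oocyte in the Trp63 result was not tested. Chek1, the kinase of the replication checkpoint, fell by 1.58 at day 8 (adjusted p = 7.31e-07), and Trp53bp1, a scaffold at DNA breaks, was lower at day 2 (-0.44) and day 8 (-0.63). Atm, the kinase that senses such breaks, was higher at day 2 (0.77, adjusted p = 0.0330), a call lost on its second probe (0.51, adjusted p = 0.258) and without day 0 repeat 1, 2 or 5 or day 2 repeat 1 or 3 (0.65 to 0.78). The inhibitors of p53 next to Mdm2 did not pass: at day 8 the phosphatase Ppm1d differed by -0.02 and Mdm4 by -0.22 (adjusted p = 0.938 and 0.373), and Mdm4 was detected on 2 of 5 day 0 and 1 of 3 day 8 arrays.

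Of 5 further genes of cell cycle arrest, none rose and 2 fell at day 2 (40%, beside 25.1% of all genes). These were the polo-like kinases Plk3 (-1.03, adjusted p = 2.65e-05) and Plk2 (-0.97, adjusted p = 0.00593), both also lower at day 8 (-1.17 and -1.51); the day 2 call of Plk2 was lost without day 2 repeat 1 (-0.77, adjusted p = 0.0525). Gtse1, which carries p53 out of the nucleus, was lower at day 8 (-0.46), a call lost without day 8 repeat 2 (-0.36, adjusted p = 0.0572). At day 4 its mean level was above that of day 0 (9.86 beside 9.17). Ccng2, the paralog of Ccng1, took another course. Its differences from day 0 were -0.79 at day 2 and 0.71 at day 8, neither past the threshold. On the days between, its mean level was 8.64 at day 4 and 8.62 at day 6, beside 7.09 at day 0. The arrays of days 4 and 6 all lay above those of day 0. From day 2 to day 8 Ccng2 rose by 1.50 (adjusted p = 0.00222).

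Among 9 apoptosis genes, 2 rose at day 2, Pidd1 (0.72), the scaffold that activates caspase-2, and Ei24 (0.64), a membrane protein of the endoplasmic reticulum. The shares called were 22.2% at day 2 and 44.4% at day 8, near the 25.1% and 43.4% of all genes. At day 8 against day 0, 1 rose and 3 fell: Ei24 was higher (0.58), whereas the death receptor Fas (-0.90), the BH3 protein Bid (-0.97) and the nuclease Aen (-0.61) were lower. Aen was not detected on any day 8 array, so it was at least 1.07-fold lower. On the second probes Bid gave -0.08 and Fas -0.17 at day 8, neither past the threshold. Bax, the pore former on which Bbc3 acts, differed by 0.23 at day 2 and 0.15 at day 8 (adjusted p = 0.641 and 0.717).

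Of 6 genes of DNA repair and nucleotide supply, 2 rose at day 2 and none fell, and at day 8 against day 0 2 rose and 2 fell (33.3% and 66.7%, beside 25.1% and 43.4% of all genes). The lesion polymerase Polk was higher at day 2 (0.62) and day 8 (1.03, adjusted p = 6.45e-07). The nuclease Ercc5 was higher at both (0.63 and 0.71), but its second probe gave -0.49 at day 2 (adjusted p = 0.0847). The ribonucleotide reductase subunit Rrm2b was lower at day 8 (-0.65), and Pcna, the sliding clamp, fell by 1.09 from day 2 to day 8 (adjusted p = 0.0170), a call lost without day 2 repeat 1 or 3 or day 8 repeat 2 (-1.03 to -0.92).

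Of 6 targets in metabolism, redox control and autophagy, 3 rose at day 2 and 4 at day 8 against day 0, and none fell (50% and 66.7%, where 12.1% and 20.6% of all genes were higher). Dram1, a lysosomal membrane protein of autophagy, was 4.05-fold higher at day 2 (2.02, SE 0.19, adjusted p = 2.56e-07) and 3.07-fold higher at day 8, with 4 of 5 day 0 arrays detected. The epoxide hydrolase Ephx1 rose by 0.64 at day 2 and by 1.81 at day 8. Phlda3, which blocks Akt at the membrane, was higher at day 2 (0.95) and day 8 (0.72), the latter lost without day 8 repeat 2 (0.53, adjusted p = 0.0778). The sestrin Sesn1 was higher at day 8 (0.59, adjusted p = 0.0395), while the peroxidase Gpx1 differed by -0.12 and 0.03.

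The paralogs of the members did not share their direction throughout: of 7, 2 rose and 3 fell at day 2, and 2 rose and 2 fell at day 8 (71.4% and 57.1%, beside 25.1% and 43.4% of all genes). Gadd45b fell as Gadd45a did, by 1.73 at day 2 and 2.22 at day 8 (adjusted p = 2.50e-07 and 2.69e-09), whereas Gadd45g differed by -0.17 and -0.08 and did not pass. Sesn3 was higher at day 8 (1.48, adjusted p = 0.000106). Trp53inp2 was lower at day 2 (-0.53) and higher at day 8 (0.59), where Trp53inp1 was higher at both. Cdkn1b, which encodes the kinase inhibitor p27, was higher at day 2 (0.94, adjusted p = 0.0225), lost without day 2 repeat 1 or 2 (0.80 and 0.84). Zmat4 fell, and since no day 2 or day 8 array detected it, it was at least 1.24-fold lower at day 2 and at least 1.18-fold lower at day 8.

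**Figure D5:**
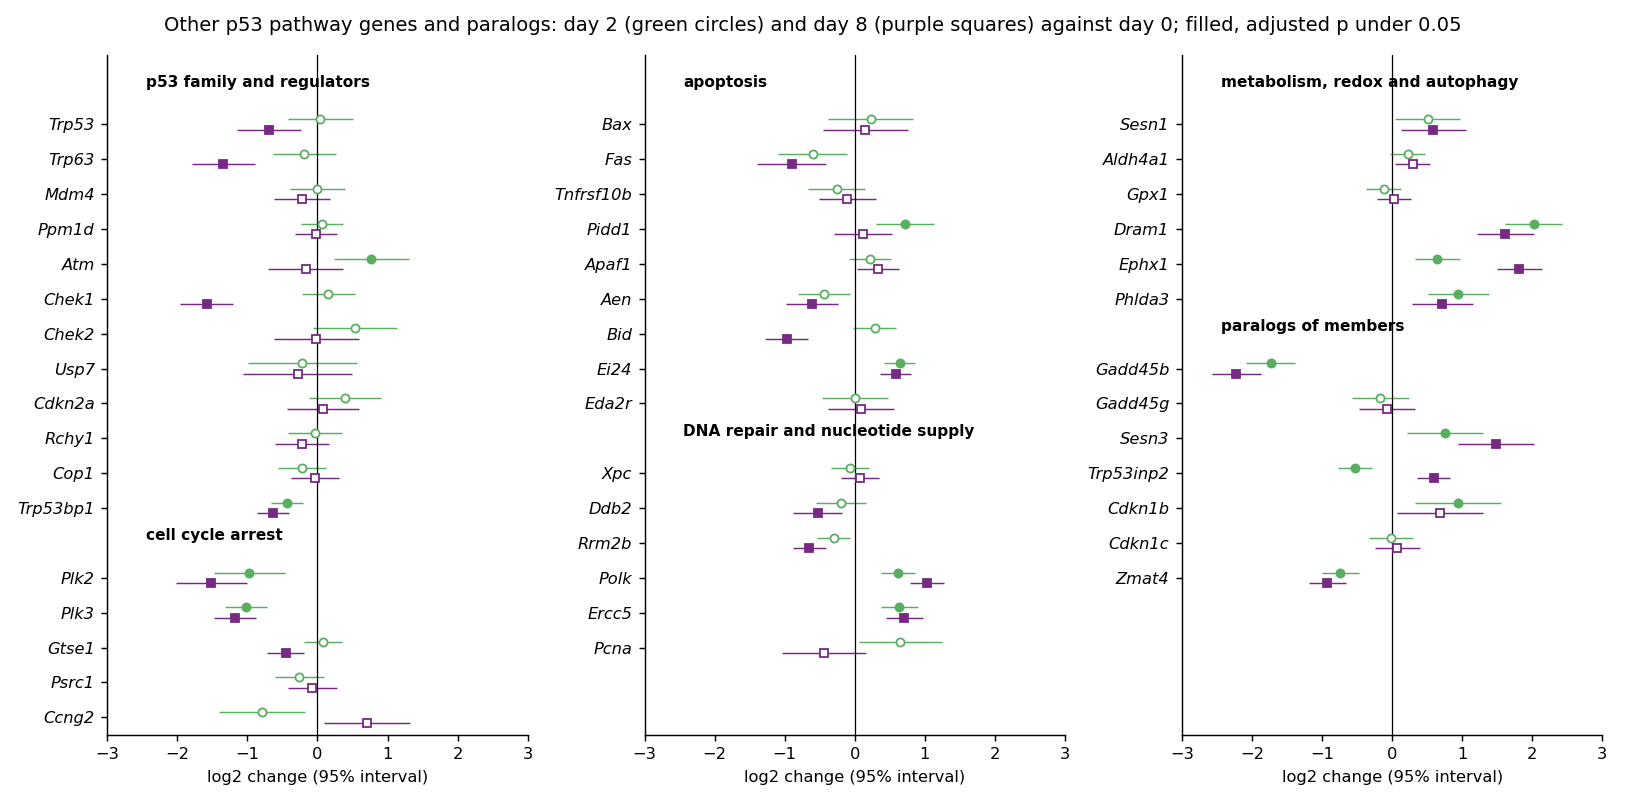
Log2 change with its 95% interval (horizontal axis) of 45 further pathway genes and paralogs, for day 2 (green circles) and day 8 (purple squares) against day 0; filled symbols passed the threshold. Of 6 metabolism and autophagy targets 3 are called higher at day 2 and none lower, while Plk2, Plk3 and Gadd45b lie below 0 at both days.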

How the data were processed

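Total RNA of pooled follicles was amplified, labelled with biotin and hybridised to Illumina mouse bead arrays, per the labels' protocols. The authors deposited, per the file headers, a mean bead intensity without normalization for each probe and array, with its standard error, a detection p-value and the number of beads. A further table deposited by the authors holds log2 values; its software and normalization are not given in the sources used here, and it served as an alternative. A median of 38 to 40 beads stood behind a signal, with a median standard error of 4.01% to 5.19%; the number of arrays limits the precision.

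Signals of the 20 follicle arrays were background corrected and quantile normalized with neqc (offset 16) in limma 3.58.1 (R 4.3.3). A probe stayed in if 3 or more of the 20 arrays gave it a detection p below 0.05, and the brightest such probe stood for its gene, with symbols updated through RefSeq (GRCm38.p6). The limma model gave each day its own mean over 10688 genes, and the procedure was tested on simulated data. The 5 arrays labelled brain reference entered no comparison. The members and gene lists were chosen with earlier results of these data known. Named were the 8 members, Trp53, Trp63, Mdm4 and Ppm1d, from each role group up to 3 genes called with the largest change and the brightest not called, and the 3 genes most correlated with a member; Sesn1 was added after its values were seen. Alternatives varied the values, background step, scaling, filter, probe, array weights, day 0 repeats, replicate block and single arrays.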

Additional observations from a re-analysis of the deposited data

Results flagged for a closer look

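Among the members, Ccng1 on day 0 repeat 4 stood above the other 4 fresh arrays, at a log2 level of 9.33, with a gap to the next array of over 0.71 of the range of the day. Chek1 on day 0 repeat 5 stood apart above the others in the same way (8.11), and Plk2 on repeat 4 stood apart below them (9.33). These are 3 of 39 genes tested in this way, and chance gives about 1 in 20. The 5 arrays labelled brain reference are in no comparison; 7 of 8 members were detected on all 5 of them, and Sesn2 was detected on 0 of 5.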

How the results depend on the processing

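Under the alternatives no member changed direction where it had been called; of the values of single members, 2442 kept their side of the threshold, 84 lost it and 26 gained it. Members called at day 2 against day 0 went from 6 to 3 on second probes, where Zmat3, with 1 probe, kept its only one. Fewer members were also called there with day 0 as 1 sample. Array weights gave 5 in place of 3 from day 2 to day 4 and 2 in place of 1 from day 4 to day 5, where median scaling and day 0 as 1 sample gave 0. From day 2 to day 8 the second probe gave 1 in place of 4. For the wider list, day 0 as 1 sample gave 3 in place of 16 at day 2 and 15 in place of 23 at day 8, and array weights gave 19 in place of 11 from day 2 to day 8. With day 0 as 1 sample fewer samples enter the fit, and 498 genes were called at day 2 in place of 2688; for the other changes the cause was not tested. With the repeat number as a replicate block, 0 members were called from day 4 to day 5 in place of 1, and no other count of members or list genes moved by over 1.5 times. The block also lost the Mdm2 call at day 2 (-0.36, adjusted p = 0.0911) and those of Cdkn1a at day 5 (0.39, 0.138) and day 8 (0.41, 0.105) against day 0 and from day 2 to day 8 (0.51). Deviations of arrays of the same number had r from -0.42 to 0.56, above 0.1 in 15 of 45 pairs. All repeats were positive between days 2 and 6 (0.56, 0.23 and 0.34) and negative between days 6 and 8 (-0.32, -0.16 and -0.31). Arrays of different number were not compared, so this check cannot decide on pairing. The main fit did not take the numbers as pairs. Leaving out 1 array gave 6 to 8 members in the F test, 5 to 6 at day 2, 6 to 7 at day 4, 5 to 6 at days 5, 6 and 8, 2 to 4 from day 2 to day 4, 0 to 2 from day 4 to day 5, 0 to 0 from day 5 to 6 and from 6 to 8, and 2 to 4 from day 2 to day 8; for the wider list it gave 14 to 18, 22 to 26 and 8 to 14. The Ercc5 change at day 2 turned to -0.49 on its second probe. Under median scaling the median change of all genes at day 5 against day 0 was 0.11, beside 0.03 with quantile normalization, and no member's called direction turned under it. Dim probes (Sesn2, the second probe of Bbc3) limit what can be said of those genes.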
